A study of Mus musculus with 16 samples.

Results

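Purkinje cells are the output neurons of the cerebellar cortex, and their degeneration is a hallmark of ataxia telangiectasia, the disease caused by loss of the ATM kinase. The genes described here are 8 transcripts by which Purkinje cells are commonly recognised: Pcp2, Calb1, Itpr1, Ppp1r17, Gng13, Rgs8, Pcp4 and Slc1a6. They were chosen by name, and their probes were found through the RefSeq accession printed beside each probe on the array. This gave 12 probes for the 8 genes, out of 56605 probes and 22911 named genes with a probe. Calb1 had 2 probes, Itpr1 had 3, Rgs8 had 2 and the other genes had 1 each.

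A Purkinje cell integrates a very large number of parallel fibre inputs from granule cells and a powerful climbing fibre input. Part of the glutamate signal acts through Gq type G proteins and phospholipase C, and the inositol trisphosphate made in this way opens the receptor Itpr1, which releases calcium from the endoplasmic reticulum. The 8 genes sit around this calcium and G protein signalling. Itpr1 is the calcium release channel, Calb1 encodes the calcium buffer calbindin, and Pcp4 encodes a small calmodulin-binding protein. Pcp2 (also called L7) modulates Gi/o proteins, Gng13 is a G protein gamma subunit, and Rgs8 speeds up the GTPase of G protein alpha subunits. Ppp1r17, the G-substrate of cGMP-dependent protein kinase, inhibits protein phosphatases. Slc1a6 is the glutamate transporter EAAT4 of the Purkinje cell membrane. Some of these transcripts, Calb1, Pcp4 and Itpr1 among them, are also made by neurons of the forebrain.

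RNA came from the cerebellar cortex of mice of the strain B6;129S4-Atmtm1Bal/J, in which Atm-/- animals and their WT littermates were used at the age of 3.5 months. From 6 weeks of age, and for 2 months, NR mice drank nicotinamide riboside, a precursor of NAD+, at 3.5 mg/ml (12 mM), while the veh mice drank plain water. Both genotypes were split by treatment into veh and NR, which made 4 groups of 4 mice, with 1 single-colour array for each mouse. The Atm deletion is constitutive, so every cell type carried it, and the labels give every mouse as male. In bulk tissue, fewer Purkinje cells and less RNA per Purkinje cell cannot be told apart.

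To show the kind of sequence from which a Purkinje cell transcript is read, the 250 bases before the most upstream RefSeq start of Pcp2 are given (assembly GRCm38.p6, chr8:3625548-3625797, minus strand, written 5′ to 3′ along the gene). The promoter of Pcp2 is widely used to direct transgenes to Purkinje cells. Capitals mark AGGTCA, the core letters bound by the Purkinje cell transcription factor RORA and by other nuclear receptors.
Pcp2: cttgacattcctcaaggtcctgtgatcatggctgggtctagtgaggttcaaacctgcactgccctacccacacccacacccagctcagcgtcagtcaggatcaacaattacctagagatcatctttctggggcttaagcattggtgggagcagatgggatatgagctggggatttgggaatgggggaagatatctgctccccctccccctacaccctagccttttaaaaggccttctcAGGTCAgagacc
These letters end 6 bases before the start. RefSeq windows were at hand for 5 of the 8 genes. Searched on both strands (AGGTCA and TGACCT), the letters stood in 5 of their 11 windows: 3 of the 4 of Pcp2, 1 of the 3 of Rgs8, and the single window of Pcp4, where they lay on the opposite strand. Of all 32851 windows of the same length, 14.0% held them. Windows of 1 gene can overlap, and a match of letters is a description and not a binding site.

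Before the values, 5 arrays need to be named. On WT veh 4, genes of other brain regions were far above the other 15 arrays. Ttr, the transthyretin of the choroid plexus, read 18.05 on the log2 scale there and 7.13 to 12.62 elsewhere. Tbr1, a transcription factor of cortical neurons, read 12.24 there and 6.77 to 8.67 elsewhere. Of 5 choroid plexus markers measured, 4 were highest on WT veh 4, and so were 4 of 5 forebrain markers. To give a list 1 level per array, each gene was centred on its own mean over the 16 arrays and the centred log2 signals were averaged. For the choroid plexus list it ran from -0.78 to 4.18 in WT veh, from -0.43 to 0.59 in WT NR, from -0.94 to 0.22 in Atm-/- veh and from -0.74 to -0.44 in Atm-/- NR. For the forebrain list the ranges were -1.34 to 4.24, -0.76 to 1.56, -1.07 to -0.00 and -0.75 to 0.52 in the same order. The highest value of both lists was that of WT veh 4. In addition, 4 arrays labelled male showed Xist above background but not Eif2s3y, Kdm5d or Uty, which lie on the Y chromosome. These were arrays 1 and 4 of WT NR, array 3 of Atm-/- veh and array 4 of Atm-/- NR. No array was left out for either reason. For the 8 genes in the 4 comparisons of single groups, results without these arrays are given beside the main ones.

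All WT arrays lay on one slide and all Atm-/- arrays on the other, which means that slide and genotype cannot be told apart. Within each slide, veh arrays were in the upper row and NR arrays in the lower row, so NR and row cannot be told apart either. Probes well above background numbered 34945 to 42559 per array, and every Atm-/- NR array had fewer of them than every Atm-/- veh array. Of the 2 Atm probes, one was lower on all Atm-/- arrays (7.72 to 8.08) than on all WT arrays (8.52 to 9.03), and the other overlapped (8.61 to 9.23 against 8.88 to 9.27). Neither is known here to lie in the deleted part of the gene.

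All 12 probes of the Purkinje cell genes were well above background on all 16 arrays, and none had a saturated or outlier spot. Among the probes kept for the tests, the brightest of each gene lay at the 99.0 to 99.9 percentile of signal, except Ppp1r17 (91.1). The fainter probes of Calb1, Itpr1 and Rgs8 lay at the 61.4 to 88.4 percentile. Signal above background does not by itself tell the tissue, since the choroid plexus marker Ttr and the forebrain marker Tbr1 were also detected on all 16 arrays. A gene was read on its brightest probe. The residual SD of that probe within groups ran from 0.108 for Itpr1 to 0.292 for Ppp1r17 on the log2 scale. These are the 18.7 and 72.2 percentiles of the SDs of the brightest probes of the 16737 named genes kept. Signals below are normalised log2 signals, in the order of mice 1 to 4 of a group.

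**Figure D1:**
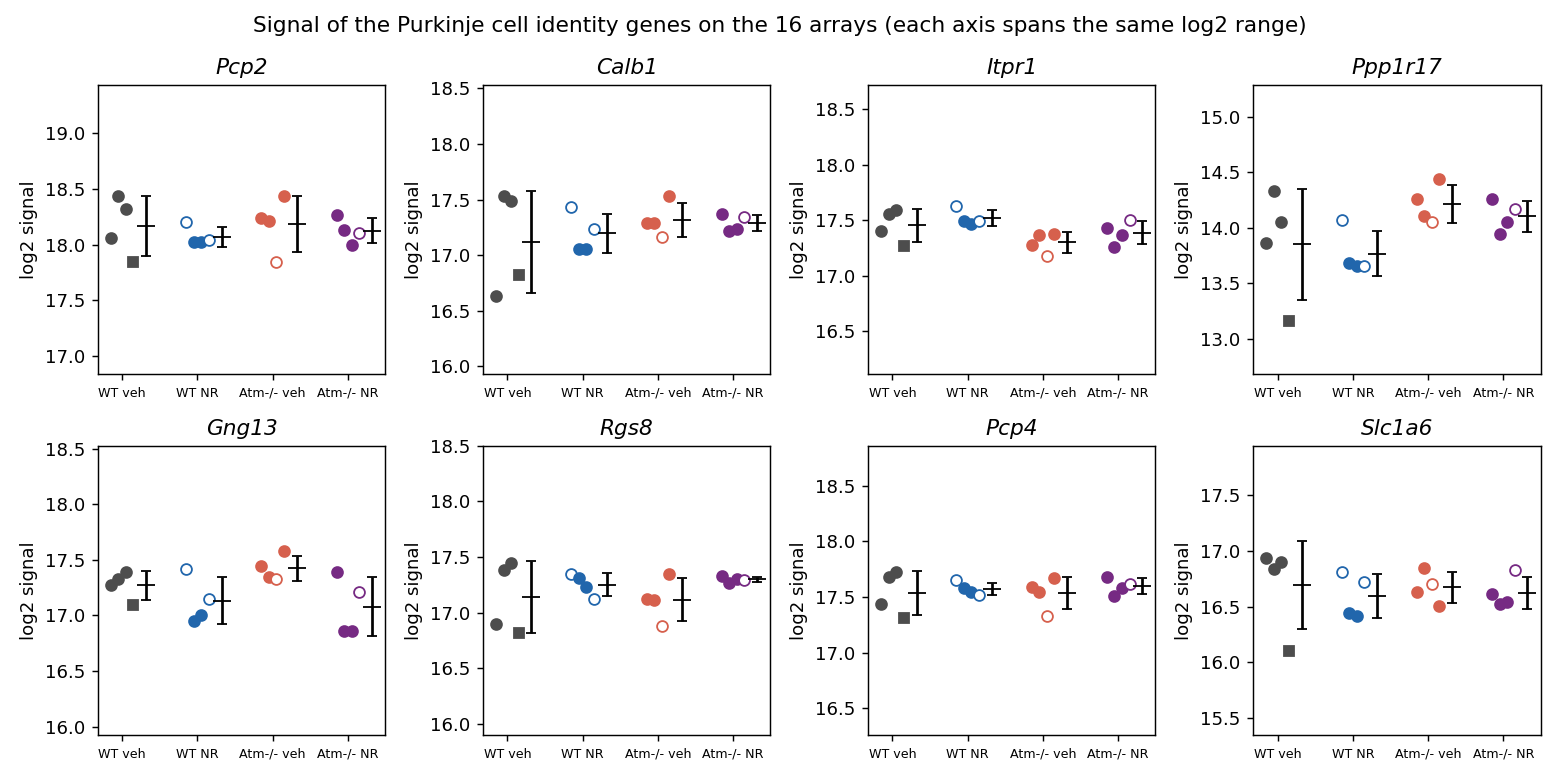
The plot of signal by array shows the normalised log2 signal of the 8 Purkinje cell identity genes (brightest probe) in the 4 groups, where each point is 1 array, the square is WT veh 4, open circles are the 4 arrays without signal of Y-linked genes, and the bar gives the group mean ± SD (n = 4). The groups overlapped for all 8 genes in each of the 4 comparisons, and the lowest WT veh point was WT veh 4 for 7 genes and WT veh 1 for Calb1.

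Among the calcium genes, Itpr1 read 17.40, 17.56, 17.59 and 17.27 in WT veh, 17.63, 17.49, 17.47 and 17.49 in WT NR, 17.28, 17.37, 17.18 and 17.38 in Atm-/- veh, and 17.43, 17.26, 17.37 and 17.50 in Atm-/- NR. The Atm-/- veh values lay at the lower end of the WT veh range and overlapped it. Calb1 read 16.63, 17.53, 17.49 and 16.82 in WT veh, 17.43, 17.06, 17.06 and 17.24 in WT NR, 17.29, 17.29, 17.16 and 17.53 in Atm-/- veh, and 17.37, 17.22, 17.24 and 17.34 in Atm-/- NR. WT veh 1 and WT veh 4 were the 2 lowest of all 16 arrays for this calcium buffer, and the WT veh group was spread the most (17.12 ± 0.459, SD, n = 4). Pcp4 read 17.44, 17.68, 17.72 and 17.31 in WT veh, 17.65, 17.58, 17.54 and 17.52 in WT NR, 17.59, 17.54, 17.33 and 17.67 in Atm-/- veh, and 17.68, 17.51, 17.58 and 17.62 in Atm-/- NR. This calmodulin-binding transcript varied the least of the 8, with a range of 0.41 over all arrays.

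Among the G protein genes, Pcp2 read 18.06, 18.44, 18.32 and 17.84 in WT veh, 18.20, 18.02, 18.02 and 18.04 in WT NR, 18.24, 18.21, 17.84 and 18.44 in Atm-/- veh, and 18.27, 18.13, 18.00 and 18.10 in Atm-/- NR. Each veh group held both a high and a low animal, and both NR groups lay between them. Gng13 read 17.27, 17.33, 17.39 and 17.09 in WT veh, 17.42, 16.95, 17.00 and 17.15 in WT NR, 17.44, 17.35, 17.33 and 17.58 in Atm-/- veh, and 17.39, 16.86, 16.86 and 17.21 in Atm-/- NR. Of the Atm-/- NR arrays, 3 lay below all Atm-/- veh arrays while Atm-/- NR 1 lay among them, and in both NR groups the lowest values were those of mice 2 and 3. Rgs8 read 16.90, 17.38, 17.45 and 16.82 in WT veh, 17.35, 17.31, 17.23 and 17.12 in WT NR, 17.12, 17.11, 16.88 and 17.35 in Atm-/- veh, and 17.33, 17.27, 17.30 and 17.29 in Atm-/- NR. The 4 Atm-/- NR values were close together (17.30 ± 0.0269, SD, n = 4) and fell inside the range of Atm-/- veh.

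The remaining genes were Ppp1r17 and Slc1a6. Ppp1r17, the phosphatase inhibitor, read 13.86, 14.33, 14.05 and 13.16 in WT veh, 14.07, 13.68, 13.66 and 13.66 in WT NR, 14.26, 14.11, 14.05 and 14.44 in Atm-/- veh, and 14.26, 13.94, 14.05 and 14.17 in Atm-/- NR. It had the widest range of the 8 genes (1.28), and WT veh 4 was the lowest array. Slc1a6, the glutamate transporter, read 16.94, 16.84, 16.90 and 16.10 in WT veh, 16.81, 16.44, 16.42 and 16.72 in WT NR, 16.63, 16.85, 16.70 and 16.51 in Atm-/- veh, and 16.61, 16.52, 16.54 and 16.83 in Atm-/- NR. WT veh 4 was the lowest array for this gene too, while the other 3 WT veh arrays lay between 16.84 and 16.94.

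Whether loss of ATM goes with a change of Purkinje cell transcripts was read from Atm-/- veh against WT veh. None of the 8 genes was called by limma at an adjusted p under 0.05, and 0 of 8 had an unadjusted p under 0.05; over all probes, 0.0537% were called, 14.6% had an unadjusted p under 0.05, and 7.6% had groups that did not overlap, against 0 of 8 here. Differences ran from -0.15 to 0.36 on the log2 scale with a median of 0.01 (all 16737 named genes, -0.03), and 4 genes were higher and 4 lower (49.3% of all probes were above 0). Ppp1r17 was the highest at 0.36 (SE 0.198, 95% confidence interval -0.06 to 0.79, adjusted p = 0.414). Itpr1 was the lowest at -0.15 (SE 0.0859, interval -0.34 to 0.03, adjusted p = 0.420). Pcp2 (0.02, interval -0.27 to 0.31) and Pcp4 (-0.01, interval -0.22 to 0.21) were among the genes nearest to 0. On the brightest probes, the intervals of all 8 genes lay between -0.38 and 0.79. On the fainter probes of Calb1, Itpr1 and Rgs8 they were wider and reached -0.72, for an Itpr1 probe at -0.23.

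The result of this comparison leaned on WT veh 4. Without it, 3 genes were higher and 5 lower, the median was -0.08, and again none was called (0.0322% of all probes). Itpr1 was then at -0.22 (interval -0.39 to -0.04, unadjusted p = 0.0203 and adjusted p = 0.243 by limma), Slc1a6 at -0.22 (interval -0.47 to 0.03) and Ppp1r17 at 0.13 (interval -0.17 to 0.44). With the 12 arrays that had signal of Y-linked genes, 6 were higher and 2 lower, and none was called (0.0403% of all probes).

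In the NR groups, Atm-/- NR against WT NR asked the same question between groups that do not hold WT veh 4, although that array enters the spread of the shared fit. None of the 8 was called, with 0.0537% of all probes called, and 0 of 8 had an unadjusted p under 0.05 (5.21% of all probes). Differences ran from -0.13 for Itpr1 to 0.34 for Ppp1r17 (SE 0.198, interval -0.09 to 0.76), with 6 genes higher and 2 lower (50.3% of all probes were above 0) and a median of 0.04. On the fainter probes, Itpr1 stood at -0.37 (interval -0.74 to 0.01) and -0.26 (interval -0.75 to 0.23). Those of Calb1 (0.17) and Rgs8 (-0.05) were not called either. With WT veh 4 left out of the fit, 1 of 8 (Ppp1r17, again 0.34, interval 0.05 to 0.62) had an unadjusted p under 0.05. None was called (0.0644% of all probes). With the 12 arrays that had signal of Y-linked genes, 7 were higher and 1 lower, and none was called (0.0268% of all probes). With all arrays, the groups overlapped for all 8 genes, while 4% of all probes had groups that did not. Averaged over both treatments, which uses the same arrays again, none was called (0.201% of all probes) and 2 genes had an unadjusted p under 0.05 (12.9% of all probes). The genotypes overlapped for all 8 genes, while 0.244% of all probes did not overlap. The 2 genes were Ppp1r17, at 0.35 (interval 0.05 to 0.65, unadjusted p = 0.0255, adjusted p = 0.318 by limma), and Itpr1, at -0.14 (interval -0.27 to -0.01, unadjusted p = 0.0344, adjusted p = 0.344). The other 2 probes of Itpr1 stood at -0.22 and -0.24 in this average and were not called either.

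**Figure D2:**
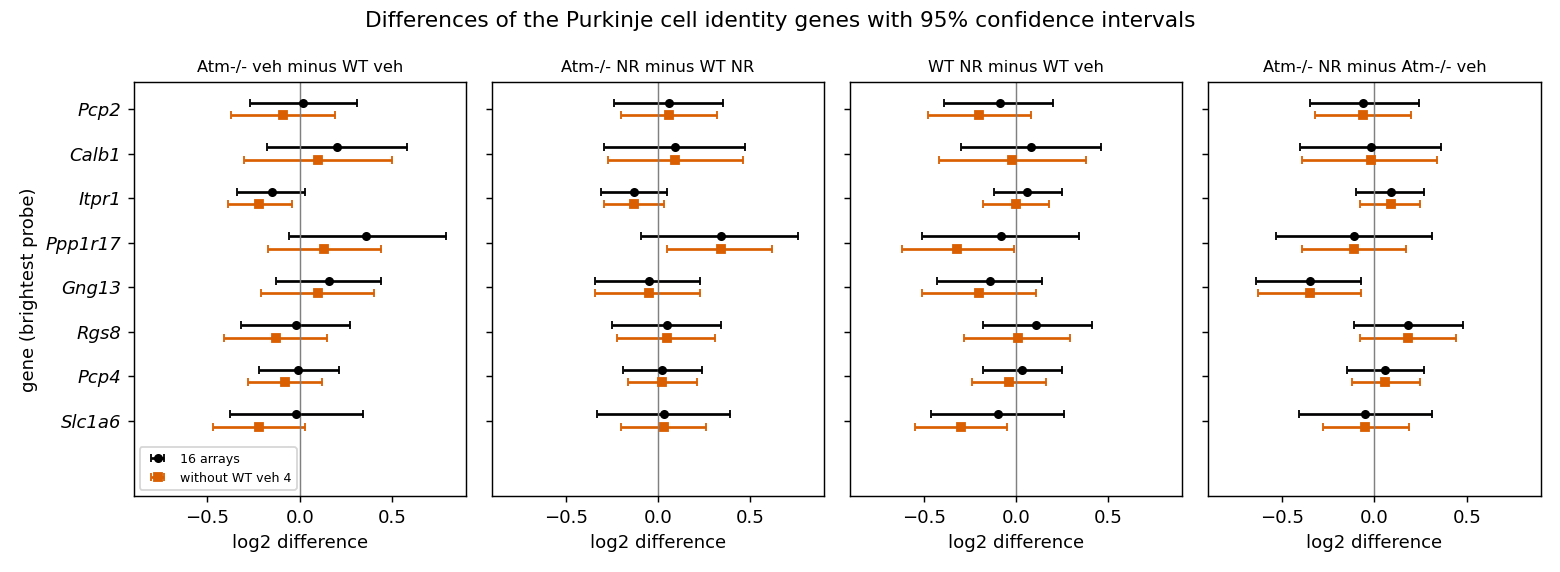
The plot of differences shows the log2 difference of each of the 8 genes in 4 comparisons, with 95% confidence intervals from limma, for all 16 arrays (black circles) and without WT veh 4 (orange squares). With all arrays, the interval of Gng13 in Atm-/- NR against Atm-/- veh (-0.64 to -0.07) is the one that leaves out 0; without WT veh 4, it is joined by Itpr1 in Atm-/- veh against WT veh, Ppp1r17 in Atm-/- NR against WT NR, and Ppp1r17 and Slc1a6 in WT NR against WT veh.

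Whether NR changed the Purkinje cell transcripts was read within each genotype, and so within each slide. In WT NR against WT veh, none of the 8 genes was called, 0% of all probes were called, and 0 of 8 genes had an unadjusted p under 0.05 (7.62% of all probes). Differences ran from -0.14 for Gng13 to 0.11 for Rgs8, with a median of -0.03 and 4 genes above 0 (46.8% of all probes), and all intervals lay between -0.51 and 0.46. The groups overlapped for all 8 genes (4.09% of all probes did not overlap). Without WT veh 4, 2 genes were higher and 6 lower with a median of -0.12, and none was called (0% of all probes). Ppp1r17 was then at -0.32 (interval -0.62 to -0.01, adjusted p = 0.479 by limma) and Slc1a6 at -0.30 (interval -0.55 to -0.05, adjusted p = 0.425). With the 12 arrays that had signal of Y-linked genes, WT NR held 2 arrays. Of the 8 genes, 3 were then higher and 5 lower, and none was called (0.0161% of all probes).

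In Atm-/- NR against Atm-/- veh, where 9.04% of all probes were called, none of the 8 Purkinje cell identity genes was. Gng13, the G protein gamma subunit, came nearest at -0.35 (SE 0.133, interval -0.64 to -0.07, unadjusted p = 0.0196, adjusted p = 0.109 by limma), from a mean of 17.43 ± 0.114 (SD, n = 4) in Atm-/- veh to 17.08 ± 0.265 in Atm-/- NR. It was the 1 gene of 8 with an unadjusted p under 0.05, while 27.3% of all probes had one. Rgs8 was the highest at 0.18 (interval -0.11 to 0.48, adjusted p = 0.417). Pcp2 was at -0.06 (interval -0.35 to 0.24), Calb1 at -0.02 (interval -0.40 to 0.36) and Slc1a6 at -0.05 (interval -0.41 to 0.31). The median was -0.04 (all named genes, 0.04), with 3 genes higher and 5 lower (49.9% of all probes were above 0). The groups overlapped for all 8 genes, while 20.2% of all probes had groups that did not. Without WT veh 4, which is in neither group but in the shared fit, Gng13 had an adjusted p of 0.0968. With the 12 arrays that had signal of Y-linked genes, Gng13 was at -0.43 (adjusted p = 0.131 by limma). Of the 8 genes, 2 were then higher and 6 lower, and none was called (1.18% of all probes).

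Averaged over both genotypes, the NR difference of Gng13 was -0.25 (SE 0.0941, interval -0.45 to -0.04, unadjusted p = 0.0205, adjusted p = 0.108), and again none of the 8 was called, against 10.8% of all probes. Of the 8 genes, 1 had an unadjusted p under 0.05 (27.4% of all probes), and all 8 overlapped between the NR and veh arrays (1.12% of all probes did not). Without Atm-/- NR 1, its adjusted p was 0.0496, and 10% of all probes were called. With only the arrays that had signal of Y-linked genes, and without WT veh 4, 2 of the 8 genes and 11% of all probes were called in this average, the genes being Slc1a6 at -0.29 (adjusted p = 0.0370) and Gng13 at -0.39 (adjusted p = 0.0498). The difference between the NR effects of the genotypes was tested in the same fit, and none of the 8 genes was called (0% of all probes), with values from -0.21 to 0.07 and unadjusted p from 0.283 upwards (5.27% of all probes were under 0.05).

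The fainter probes gave a second reading of 3 genes. The second probe of Calb1 was at 0.28 in Atm-/- NR against Atm-/- veh (interval -0.10 to 0.66) where the brightest was at -0.02. For Itpr1 the brightest probe was at 0.09 and the other 2 at -0.29 (interval -0.66 to 0.09) and -0.11 (interval -0.60 to 0.38). The second probe of Rgs8 was at -0.06, against 0.18 for the brightest. The probes of these 3 genes thus differed in sign in this comparison, within intervals that overlapped, and none was called.

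The 8 genes moved together from array to array. Over the 16 arrays, which share normalisation and tissue dissection, all 28 pairs of the 8 genes had a positive Pearson correlation (median 0.55, from 0.08 to 0.93). Within groups, the median was 0.76. Without WT veh 4, 25 of 28 pairs were positive (median 0.45, from -0.19 to 0.90). Pcp2 and Pcp4 followed the mean of the other 7 most closely (both 0.86), and Itpr1 the least over all arrays (0.48) although it did so within groups (0.92). These correlations describe the arrays and were given no test.

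The mean level of the 8 genes was lowest on WT veh 4, at -0.37, and 5 of the 8 genes had their lowest value of all arrays there, Pcp2 as a tie. The other arrays ran from -0.13 to 0.21. The level of 24 other Purkinje cell genes, such as Lhx1 and Rora, was also lowest there at -0.43, and so was that of 13 granule cell genes at -0.34, while markers of oligodendrocyte precursors (0.76) and microglia (0.66) were highest there. Over 16 arrays, the level of the 8 genes correlated with that of the other Purkinje cell genes at 0.79, of granule cell genes at 0.82, of forebrain genes at -0.80 and of choroid plexus genes at -0.77, and over the 15 arrays without WT veh 4 at 0.62, 0.72, -0.63 and -0.61. The level of the 8 genes also correlated with that of oligodendrocyte precursors at -0.80 and of microglia at -0.75 over 16 arrays. Over the 15 arrays these were -0.65 and -0.58. The part of tissue makeup in the differences above was not tested.

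**Figure D3:**
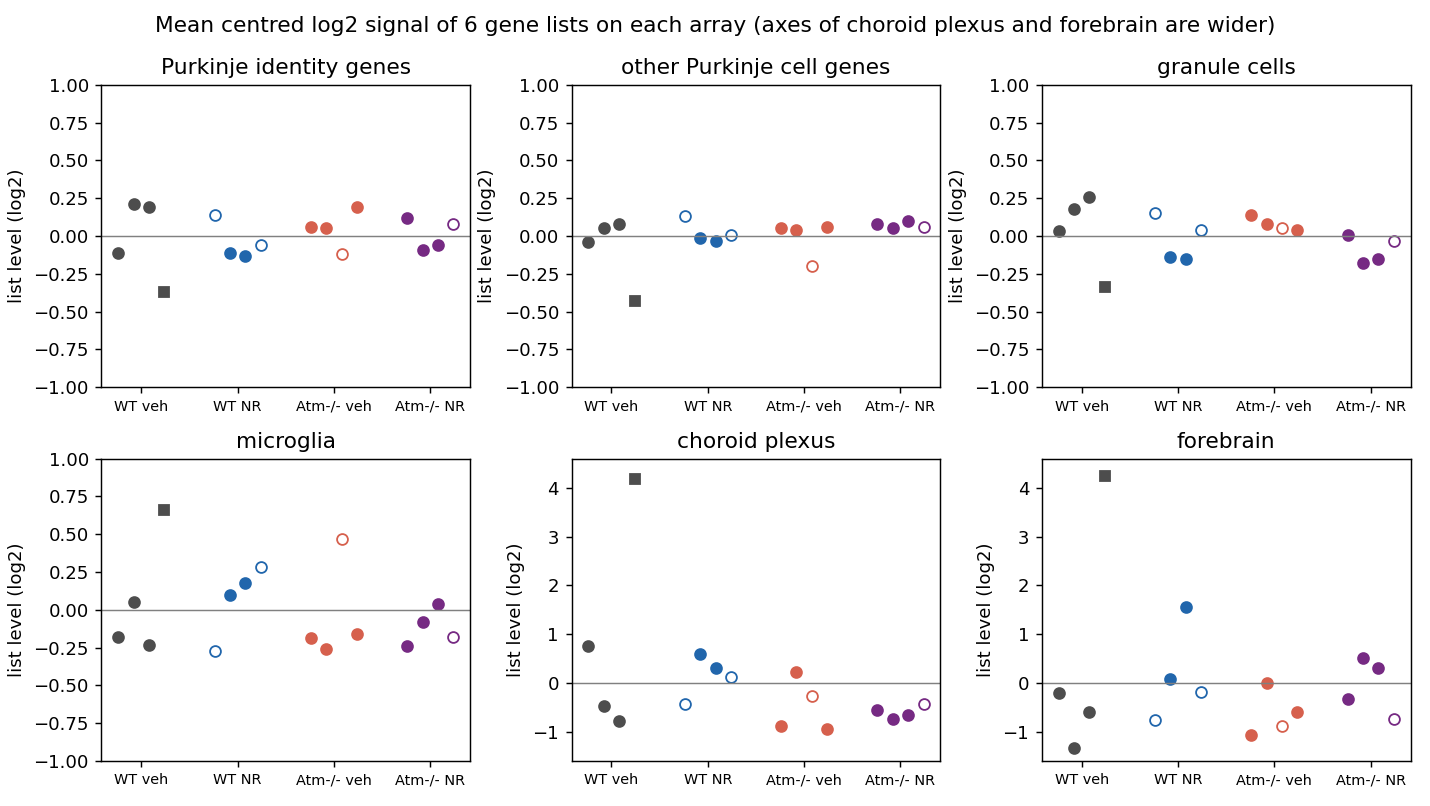
The plot of list levels shows, for 6 gene lists, the mean over genes of the log2 signal centred on each gene's mean over all 16 arrays, with 1 point per array (square, WT veh 4; open circles, arrays without signal of Y-linked genes). WT veh 4 is at -0.37 for the Purkinje identity genes and at 4.18 and 4.24 for choroid plexus and forebrain, and the axes of those 2 lists are wider than the others.

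The genes most like the mean of the 8 over the 16 arrays were Erg28 (r = 0.95), Plxdc1 (0.93), Krt25, Asph and Bcar1 (0.92 each), Arhgap12 (0.91), Ttll5, Lhx1 and Garnl3 (0.90 each) and Grid2ip (0.89). Lhx1 is a transcription factor of Purkinje cells. Without WT veh 4 their r lay between 0.82 and 0.92, and 5 of the 10, Erg28, Plxdc1, Krt25, Asph and Grid2ip, were still among the 10 highest.

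Of 25 other genes of Purkinje cells, 24 were measured. This list, like the other gene lists below, was chosen with earlier results of these data known. The shares of all probes beside the counts therefore describe the lists and do not test them. None of the 24 genes was called in Atm-/- veh against WT veh (0.0537% of all probes). There the highest were Car8 (0.47), Homer3 (0.42) and Gad1 (0.37) and the lowest Itpka (-0.26), Pcp4l1 (-0.24) and Rora (-0.24). The median was 0.10 (-0.02 without WT veh 4). None was called in Atm-/- NR against WT NR (0.0537% of all probes). There the highest were Foxp2 (0.27), Skor2 (0.26) and Itpka (0.25), and Pcp4l1 (-0.14) was among the lowest. None was called in WT NR against WT veh (0% of all probes). There the highest were Car8 (1.43), Foxp2 (1.06) and Pcp4l1 (0.17), and Homer3 (-0.27) and Itpka (-0.15) were among the lowest. In Atm-/- NR against Atm-/- veh, 1 of 24 was called higher (4.56% of all probes) and 0 lower (4.48%), the 1 being Car8. Beside it, Foxp2 (1.58, adjusted p = 0.0759) was the highest and Homer3 (-0.56, adjusted p = 0.0761) the lowest.

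Car8, a carbonic anhydrase-related protein that binds Itpr1 and lowers its affinity for inositol trisphosphate, had a clear NR difference. It read 14.05, 12.45, 14.36 and 13.47 in WT veh, 15.24, 14.97, 14.86 and 14.97 in WT NR, 14.24, 14.23, 13.48 and 14.24 in Atm-/- veh, and 15.19, 15.09, 15.11 and 15.21 in Atm-/- NR. All 8 NR values lay above all 8 veh values. Car8 rose by 1.10 in Atm-/- mice (SE 0.310, adjusted p = 0.0417 by limma) and its second probe by 1.20 (adjusted p = 0.0139). In WT mice the difference was 1.43 and was not called (unadjusted p = 0.00042, adjusted p = 0.371), and averaged over both genotypes it was 1.26 (adjusted p = 0.00656). The call in Atm-/- mice was lost on leaving out any 1 of 10 arrays (WT NR 2, 3 and 4, Atm-/- veh 1, 3 and 4, and each Atm-/- NR array), with adjusted p from 0.0529 to 0.104 and differences from 0.91 to 1.17 over all 16 such fits, whereas the call of the average was kept in all 16.

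Foxp2, a transcription factor of Purkinje cells, was called in the average over both genotypes alone, at 1.32 (adjusted p = 0.0385 by limma). With Car8, 2 of the 24 genes were called higher in this average and 0 lower, where 10.8% of all probes were called. It read 7.07, 8.92, 8.95 and 7.06 in WT NR, 7.43, 9.11, 9.28 and 7.25 in Atm-/- NR, 6.42 to 7.45 in WT veh and 6.33 to 6.88 in Atm-/- veh. In both NR groups, mice 2 and 3 were high and mice 1 and 4 were near the veh range, and the mouse number is also the column of the array on the slide. Leaving out WT veh 1, 2 or 4, WT NR 2 or 3, Atm-/- veh 1, 3 or 4, or Atm-/- NR 2 or 3 took the adjusted p to between 0.0569 and 0.0775.

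Of 29 genes of Gq and inositol trisphosphate signalling and of the G protein partners of the 8 genes, 28 were measured; genes such as Car8, Homer3, Itpka and Inpp5a stand in both lists. None was called in either genotype comparison (0.0537% of all probes in each) or in WT NR against WT veh (0%). Among the extremes in Atm-/- veh against WT veh were Car8 and Homer3 on the higher side and Gnaq (-0.43), Prkca (-0.41) and Itpr2 (-0.32) on the lower. In WT NR against WT veh they were Car8, Plcb4 (0.22) and Rgs7bp (0.20), and Rgs7 (-0.30) and Homer3 (-0.27). In Atm-/- NR against WT NR they were Itpka (0.25) and Car8 (0.14), and Gng7 (-0.20) and Itpr2 (-0.19).

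In Atm-/- NR against Atm-/- veh, 3 of the 28 were called higher (4.56% of all probes) and 3 lower (4.48%). The median was 0.02 (all named genes, 0.04). The list was chosen with earlier results of these data known, so these shares describe it and do not test it. Beside Car8, Gnaq, an alpha subunit of the Gq type, rose by 0.39 (SE 0.103, adjusted p = 0.0336), from 12.68 to 13.16 in Atm-/- veh to 13.25 to 13.48 in Atm-/- NR. Gnai1, an inhibitory alpha subunit, rose by 0.29 (SE 0.0786, adjusted p = 0.0343). On the other side, Rgs7, an RGS protein that pairs with a beta subunit, fell by 0.45 (SE 0.0955, adjusted p = 0.0165), Gna11, another alpha subunit of the Gq type, fell by 0.30 (SE 0.0672, adjusted p = 0.0189), and Gnb1, a beta subunit, fell by 0.29 (SE 0.0799, adjusted p = 0.0386). The second probes of Rgs7 (-0.40) and Gnb1 (-0.36) were called as well. Gnaq and Gna11 thus went opposite ways. Prkca (0.43) and Homer3 (-0.56) were among the extremes and were not called. Averaged over both genotypes, 2 of the 28 were called higher and 2 lower, where 10.8% of all probes were called. Car8 and Gnai1 (0.24) were higher and Rgs7 (-0.37) and Gna11 (-0.24) lower, and these 4 calls were kept whichever 1 array was left out.

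The calls within Atm-/- mice depended on single arrays. Those of Gnaq, Gnai1 and Gnb1 were lost without any 1 of 6, 7 and 8 of the 16 arrays, with adjusted p from 0.0639 to 0.0999, 0.0532 to 0.0906 and 0.0502 to 0.118; Atm-/- veh 1, 3 and 4 and Atm-/- NR 1, 2 and 3 were among these arrays for all 3 genes, joined by Atm-/- NR 4 for Gnai1 and Gnb1 and by WT veh 2 for Gnb1. That of Gna11 was lost without Atm-/- veh 1, Atm-/- veh 4 or Atm-/- NR 4 (adjusted p from 0.0508 to 0.0631), and that of Rgs7 without Atm-/- veh 1 (adjusted p = 0.0523). Over all probes, the share called was 9.04% with all arrays. With 1 array left out it ranged from 2.31% (without Atm-/- veh 1) to 11.8% (without WT veh 4). With only arrays that had signal of Y-linked genes, none of the 6 was called, and 1.18% of all probes were. Rgs7 then had an adjusted p of 0.0578 by limma and Car8 of 0.194, and all 6 kept their direction.

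**Figure D4:**
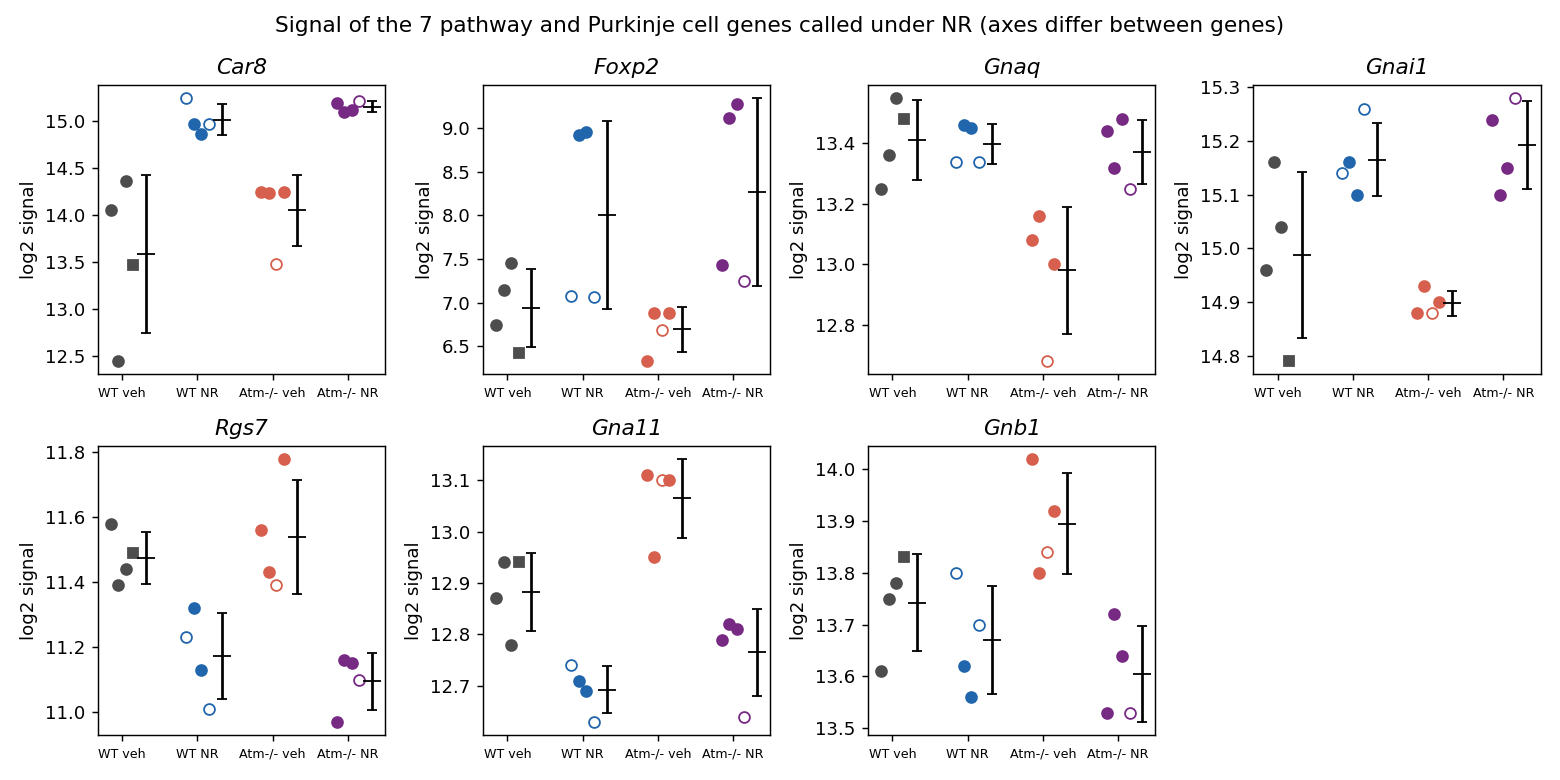
The plot of called genes shows the normalised log2 signal of the 7 genes called under NR in Atm-/- mice or in the average over both genotypes, with 1 point per array (square, WT veh 4; open circles, arrays without signal of Y-linked genes) and the group mean ± SD (n = 4). All Car8 values under NR lie above all veh values, and the Foxp2 values of mice 2 and 3 stand apart in both NR groups.

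Of all probes, 0.0537% were called in Atm-/- veh against WT veh, 0.0537% in Atm-/- NR against WT NR and 0% in WT NR against WT veh. Markers of the other cell types a piece of cerebellar cortex could hold were counted likewise. Without NR, none of them was called between the genotypes, and list medians were 0.03 for granule cells, 0.11 for molecular layer interneurons, 0.04 for Golgi and unipolar brush cells, 0.03 for Bergmann glia and astrocytes, -0.05 for oligodendrocytes, -0.21 for their precursors, -0.11 for microglia, 0.01 for endothelium and mural cells, -1.42 for choroid plexus and -1.16 for forebrain. These last 2 medians were -0.46 and -0.24 when WT veh 4 was left out. Those of granule cells (-0.18), Bergmann glia and astrocytes (-0.08), oligodendrocyte precursors (0.02) and microglia (0.01) then changed sign. Again no marker was called (0.0322% of all probes). In Atm-/- NR against Atm-/- veh the medians were -0.11, -0.15, 0.12, -0.02, 0.10, -0.08, 0.12, -0.27, -0.36 and -0.03 in the same order. Called there were Slc17a7 (-0.54), the vesicular glutamate transporter of granule cells, Reln (-0.52, its second probe at -0.34 not called), which granule cells secrete, and Pdgfrb (-0.45), the receptor of pericytes. These were 3 of 70 markers on the lower side (4.29%, against 4.48% of all probes) and 0 on the higher, and none of the markers was called in WT NR against WT veh or in Atm-/- NR against WT NR. In the NR average, Calb2 (-0.38) and Neurod6 (-0.53) were also called lower and Gjd2 (0.36) higher. That made 5 of 70 markers lower (7.14%) and 1 higher, where 10.8% of all probes were called in either direction.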

How the data were processed

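For each array, the authors deposited the intensity of each spot from Agilent Feature Extraction 12.0.3.1 (62976 spots), background-subtracted and not normalised between arrays. They also deposited z-scores, a score per probe and array, used as an alternative. The members and gene lists were chosen with earlier results of these data known. Probes were named by accession through RefSeq genes of assembly GRCm38.p6 (32994 of 56605); the arrays were designed on mm9, so no coordinates of probes are given. Detection on an array needed a share of 0.5 or more of the spots of a probe above background by the scanner's own mark, and probes detected throughout at least 1 group were kept. Log2 signals were quantile normalised, outlier spots set aside and spots of a probe averaged, which left 37253 probes. For the tests, limma 3.58.1 in R 4.3.3 fitted 4 group means to the 16 arrays, leaving 12 residual degrees of freedom, and p-values were adjusted by Benjamini-Hochberg over all probes and called under 0.05. The limma fit of Atm-/- veh against WT veh was tested on simulated data with independent noise around the normalised probe means. Normalisation, detection, probe naming and slide layout were not simulated. Of 2 lists, the text names all called genes and the 3 highest and lowest per comparison, apart from some that are not reported here; other marker lists are given by counts, medians and called genes. Precision is limited by how many arrays there are. Alternatives were the 75th percentile as scaling, normexp with an offset of 50, the z-scores, the filter on dim probes, the mean over probes of a gene, only the arrays compared, a replicate block (same-numbered mice of WT NR and Atm-/- NR correlated at 0.16 to 0.28 in their deviations from the group means, which comes from the data and not the labels), the methods' t-test, each array left out, and, added after the data were seen, arrays chosen by Y-linked signal and without WT veh 4, the NR arrays alone with the block, and lists without WT veh 4.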

Additional observations from a re-analysis of the deposited data

Results flagged for a closer look

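Within a group of 4 arrays, a value stood apart where its gap to the nearest of the others, as a share of the range of the group, passed the critical value of Dixon's test. Of 128 group and gene or list combinations, 14 did, and chance alone gives about 1 in 20. Among the Purkinje cell identity genes, WT NR 1 was high for Pcp2 (gap share 0.906; 18.20 against 18.02 to 18.04), for Ppp1r17 (0.940; 14.07 against 13.66 to 13.68) and for the brightest probe of Itpr1 (0.831; 17.63 against 17.47 to 17.49). WT NR 1 is one of the 4 arrays without signal of Y-linked genes. WT NR 3 was low for a fainter probe of Itpr1 (0.891; 11.33 against 11.95 to 12.03), and WT veh 4 was low for Slc1a6 (0.886; 16.10 against 16.84 to 16.94).

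Atm-/- veh 3, also without signal of Y-linked genes, was low for Car8 (0.979; 13.48 against 14.23 to 14.24), for the level of the other Purkinje cell genes (0.923) and for that of the Gq and inositol trisphosphate signalling list (0.952), and high for microglia (0.863; 0.47 against -0.26 to -0.16). Gna11 was low on Atm-/- veh 2 (0.907) and on Atm-/- NR 4 (0.848). The remaining list levels were high on WT NR 4 for Golgi and unipolar brush cells (0.879), high on Atm-/- NR 4 for Bergmann glia and astrocytes (0.857) and low on WT NR 3 for endothelium and mural cells (0.833).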

How the results depend on the processing

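Of the 8 genes, 0 were called in all 7 contrasts under every alternative with these exceptions, all under NR or by the methods' t-test. In the NR average, leaving out 1 array gave 0 to 1 called gene (1, Gng13, without Atm-/- NR 1), and 2 were called with arrays that had Y-linked signal and without WT veh 4. The methods' t-test was run here on recomputed z-scores of the kept probes, at an unadjusted p of 0.05 or less alone. The study's conditions on z-ratio, false discovery rate and ANOVA were not applied. This t-test called 1 in Atm-/- NR against Atm-/- veh (Gng13, 26.9% of all probes) and 1 in Atm-/- NR against WT NR (Ppp1r17, 6.42%). After Benjamini-Hochberg it called 0 of the 8 genes, and 3184 and 10 of 37253 probes in the same order.

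Same-numbered mice, which share a slide column, deviated together between WT NR and Atm-/- NR (4 pairs, r from 0.16 to 0.28). In the other comparisons of single groups, r ran from -0.15 to 0.10. Between groups not compared here, r ran from -0.02 to 0.40 for WT NR with Atm-/- veh and from -0.32 to 0.06 for WT veh with Atm-/- NR. With the 8 NR arrays alone and the replicate block, 0 of the 8 genes were called in Atm-/- NR against WT NR (Ppp1r17 nearest, adjusted p = 0.774), and calls over all probes went from 20 to 2. With the replicate block over 16 arrays, 0 of the 8 genes were called in all 7 contrasts. Gng13 was nearest to a call in Atm-/- NR against Atm-/- veh (adjusted p = 0.0988 by limma), where 8.43% of all probes were called. In that contrast the block ended the calls of Car8 (adjusted p = 0.0560), Gnb1 (0.0679), Gnaq (0.0598) and Gnai1 (0.0605) and called Foxp2 (0.0235).

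Some differences changed sign, and the cause was not tested. Scaling to the 75th percentile gave, in Atm-/- veh against WT veh, Pcp4 0.10, Slc1a6 0.04 and Rgs8 0.04, in WT NR against WT veh Pcp2 0.06, in Atm-/- NR against Atm-/- veh Slc1a6 0.02 and Calb1 0.06, and in Atm-/- NR against WT NR Gng13 0.03. Normexp gave Pcp2 -0.02 in Atm-/- veh against WT veh. The mean over probes gave Rgs8 0.02 and Rora 0.01 in Atm-/- veh against WT veh, Itpr1 -0.00 in WT NR against WT veh, Calb1 0.13 and Itpr1 -0.10 in Atm-/- NR against Atm-/- veh, and Rgs8 -0.00 in Atm-/- NR against WT NR. Arrays with Y-linked signal gave Pcp4 0.06 and Rgs8 0.05 in Atm-/- veh against WT veh and Calb1 -0.06 in WT NR against WT veh, and these arrays both with and without WT veh 4 gave Pcp4 -0.01 in Atm-/- NR against Atm-/- veh and Gng13 0.05 and Foxp2 -0.32 in Atm-/- NR against WT NR. Without WT veh 4 they also gave, in WT NR against WT veh, Pcp4 -0.06, Itpr1 -0.04, Calb1 -0.16 and Plcb4 -0.07.

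Leaving out 1 array, the ranges that crossed 0 were, in Atm-/- veh against WT veh, Pcp4 -0.08 to 0.06, Slc1a6 -0.22 to 0.06, Rgs8 -0.13 to 0.08 and Pcp2 -0.09 to 0.13; in WT NR against WT veh, Pcp4 -0.04 to 0.10, Calb1 -0.08 to 0.21, Ppp1r17 -0.32 to 0.08 and Pcp4l1 -0.01 to 0.33. In Atm-/- NR against Atm-/- veh they were Pcp4 -0.00 to 0.11, Slc1a6 -0.12 to 0.01, Calb1 -0.08 to 0.05 and Pcp2 -0.17 to 0.03, and in Atm-/- NR against WT NR, Gng13 -0.15 to 0.04, Pcp4 -0.00 to 0.05, Slc1a6 -0.04 to 0.10, Pcp4l1 -0.28 to 0.03, Gng7 -0.32 to 0.04 and Foxp2 -0.07 to 0.61. Of 35 differences of the 8 genes, 17 kept their direction throughout. Over all probes, calls ranged from 4 to 41 in Atm-/- veh against WT veh (20 in the reported fit) and from 438 to 4405 in Atm-/- NR against Atm-/- veh (3366). The 8 genes were above background on every array.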
